A study of Mus musculus with 4 samples.

Results

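The proteasome genes described here are the entries of the deposited expression table whose symbol starts with Psma to Psmg followed by a digit, without Psmb8, Psmb9 and Psmb10, which replace 3 subunits of the core in the immunoproteasome. The table held 45 such genes among 14519. They comprised 7 subunits of the 20S alpha ring, 8 of the 20S beta ring, 6 ATPases of the 19S particle, 3 scaffold and ubiquitin receptor subunits, 8 lid subunits, 3 chaperones of 19S assembly, 4 chaperones of 20S assembly, 4 alternative activators, the regulator PI31 and Psmc3ip. Psmc3ip shares only the name pattern: it encodes a factor of meiotic recombination and no proteasome subunit.

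The proteasome degrades proteins that carry ubiquitin chains. Its barrel-shaped 20S core encloses the proteolytic sites of the beta subunits between gated rings of alpha subunits, and the 19S particle at its ends binds, deubiquitinates, unfolds and threads the substrate. Cells can also cap the core with activators that lack ATPases, such as PA28, and can exchange the catalytic subunits for the interferon-inducible ones of the immunoproteasome, which favours peptides for antigen presentation.

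RNA came from cells sorted from mouse colonic epithelium by fluorescent reporters. Reg4-dsRed+ cells are deep crypt secretory (DCS) cells, mucus-producing cells at the base of colonic crypts, and Lgr5-GFP+ cells are the stem cells that lie among them. There were 2 libraries of each, from separate rounds of sorting. No treatment is named, and the labels say nothing of strain, age, sex or the number of animals per sort. CEL-seq reads the 3′ ends of transcripts, so values do not scale with gene length, and levels of different genes can be set side by side in RPM, reads scaled to a column total of 1000000.

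The Lgr5+ columns rested on 5205723 and 7955340 reads, and each Reg4+ DCS column averaged 2 parts scaled on their own (5523304 and 1890960 reads in replicate 1, 3004289 and 2443971 in replicate 2). Reg4 had 6187 and 5899 RPM in Reg4+ DCS cells and 796 and 363 RPM in Lgr5+ cells, and Lgr5 at 0.989 and 3.13 against 46.5 and 48.8 RPM. All 7 epithelial markers were present in every library. The Lgr5+ libraries also held more RNA of dividing cells (9 genes, summing to 477 and 498 RPM in Reg4+ DCS against 1718 and 1738 in Lgr5+), of tuft cells (2.30 and 1.98 against 856 and 256), of absorptive cells (8 genes, 105 and 47.6 against 843 and 161) and of leukocytes (6 of 10 markers in the table, 1.62 and 1.20 against 46.3 and 14.3). The leukocyte markers Ptprc, Cd3e, Cd79a and Cd79b had a listed value of 0 in each Reg4+ DCS library. Both Reg4+ DCS columns listed the same number of genes above 0, 12874, and the Lgr5+ columns listed 14209 and 14211. How a 0 arose in the Reg4+ DCS columns is not stated, so a 0 there need not mean absence. The part of these cells in the results on proteasome genes was not tested.

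The proteasome genes were expressed in both populations, and nearly all stood at a lower RPM in Reg4+ DCS cells. Of the 45, 43 reached 5 RPM in at least 2 libraries and were tested. All 43 did so in all 4 libraries, with values from 9.42 to 542 RPM and from 54 to 4313 reads per library. The summed level of all 45, untested genes included, was 2956 and 3160 RPM in Reg4+ DCS cells and 4922 and 5087 RPM in Lgr5+ cells. The means of 3058 ± 145 and 5004 ± 116 RPM (SD, n = 2) differed 1.64-fold. The sums did not overlap. In these bulk samples, fewer cells of a type and less RNA per cell cannot be told apart.

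**Figure D1:**
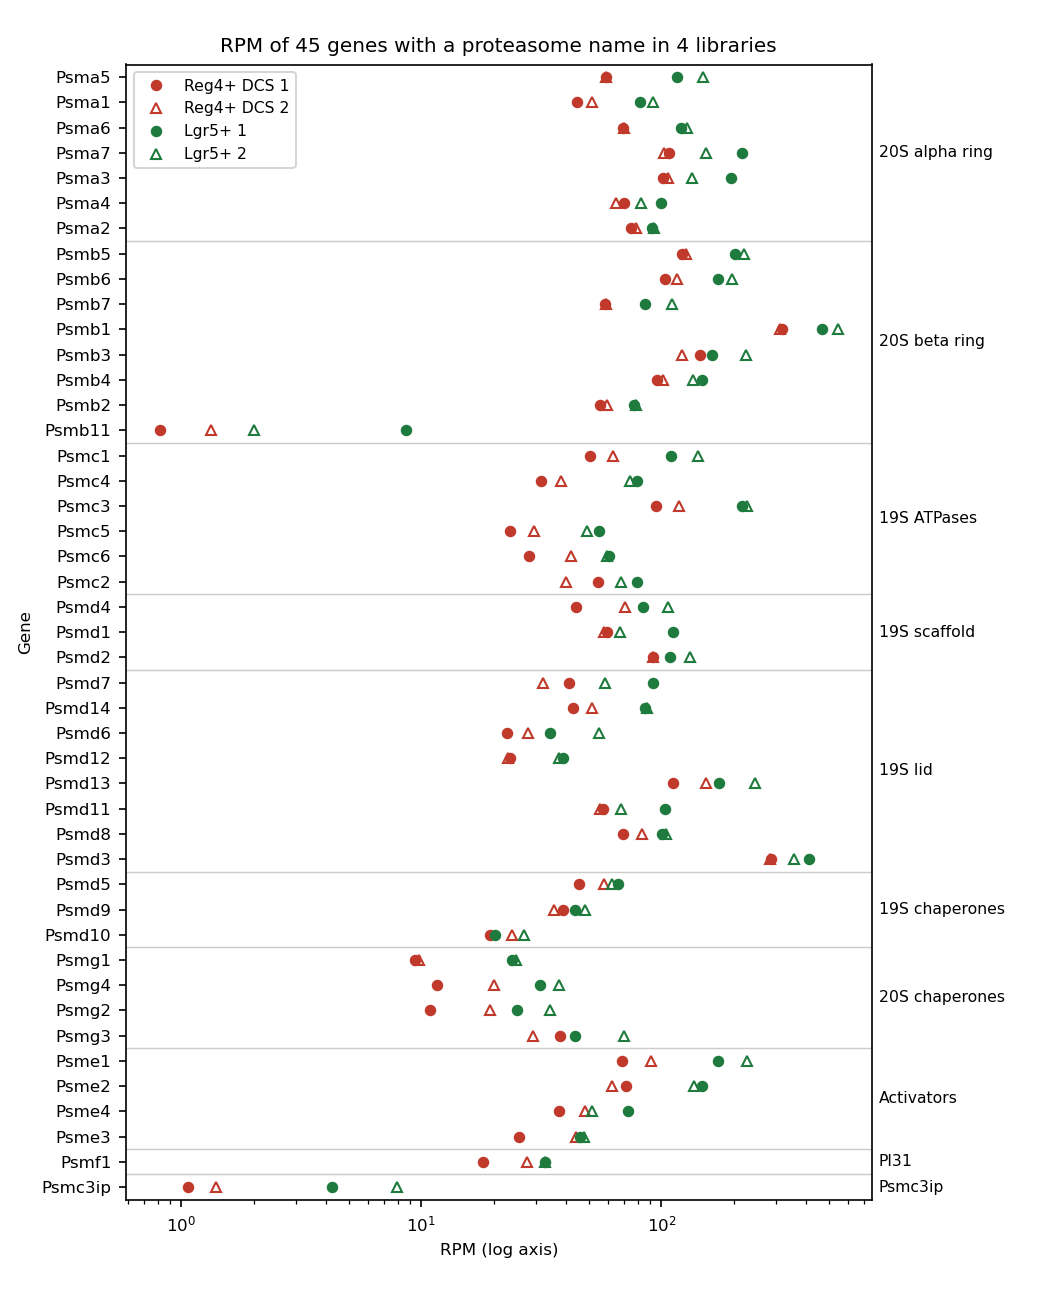
RPM on a log axis of the 45 proteasome-named genes in each of the 4 libraries, grouped by role; each mark is 1 library. The green Lgr5+ marks lie to the right of both red Reg4+ DCS marks for every gene except Psmd10, and Psmb11 and Psmc3ip sit far to the left.

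In the fit of all genes with limma on log2(RPM + 1), 18 of the 43 tested genes (41.9%) were higher in Lgr5+ cells at an adjusted p under 0.05, where 26.9% of all 10183 genes tested were. None was called higher in Reg4+ DCS cells by limma or by edgeR, where limma called 7.18% of all genes. The 18 were Psma1, Psma5, Psma6, Psma7, Psmb1, Psmb5, Psmb6, Psmb7, Psmc1, Psmc3, Psmc4, Psmc5, Psmd7, Psmd14, Psmg1, Psmg4, Psme1 and Psme2, with adjusted p from 0.00663 to 0.0472. Another 10 had an adjusted p from 0.05 to 0.1, the lowest being 0.0566 for Psmc6. Without Reg4+ DCS replicate 1 the count was 1 (Psme2, adjusted p 0.0384), against 10.6% of all genes. It was 13 without Reg4+ DCS replicate 2 (23.0% of all genes), 14 without Lgr5+ replicate 1 (17.3%) and 12 without Lgr5+ replicate 2 (16.8%). Psme2 was the single gene called in all 4 of these fits.

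All 43 log2 fold changes (Reg4+ DCS minus Lgr5+) were below 0, as were 73.7% of those of all genes. For 42 of 43 (97.7%) both Lgr5+ libraries lay above both Reg4+ DCS libraries, against 56.2% of all genes, and Psmd10 was the exception. The ratio of mean RPM, Lgr5+ over Reg4+ DCS, ran from 1.09 to 2.53 with a median of 1.65. It was at least 2-fold for 9 genes, 1.5-fold to 2-fold for 20 and below 1.5-fold for 14. The quartiles of their log2 fold change were −0.91 and −0.51, a width of 0.40, against −0.95 and 0.03, a width of 0.98, over all genes.

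RPM is relative to each library's total, and abundant transcripts took up more of the Reg4+ DCS libraries. Genes that reached 1000 RPM in a library held 51.8% and 45.2% of the RPM in Reg4+ DCS cells and 37.4% and 39.8% in Lgr5+ cells. The median log2 fold change of all genes was −0.47 in RPM and 0.02 after median-of-ratios scaling, and that of the proteasome genes was −0.72 and −0.22. The medians of the proteasome genes and of all genes thus differed by −0.26 and −0.24, with 34 of 43 below the median of all genes in RPM. After median-of-ratios scaling 33 of the 43 log2 fold changes were below 0. Only Psme1 was called (limma, adjusted p 0.0345), where 12.7% of all genes were called higher in Lgr5+ cells. An unadjusted p under 0.05 was reached by 7 of the 43. Over all 10183 genes it was reached by at least the 1297 and 1591 called higher in Lgr5+ and in Reg4+ DCS cells. edgeR with TMM scaling on recovered reads also called Psme1 alone (adjusted p 0.0325), where 13.4% of all genes were called higher in Lgr5+ cells. With RPM taken over genes under 1000 RPM 8 proteasome genes were called (18.9% of all genes), and edgeR on library totals called 16 (26.6% of all genes). The genes called over the whole table were higher in Lgr5+ cells in 79.0% of cases in RPM and in 44.9% after that scaling. The direction of the genes near the middle of all genes therefore changes with the scaling, and the differences given for single genes are in RPM.

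**Figure D2:**
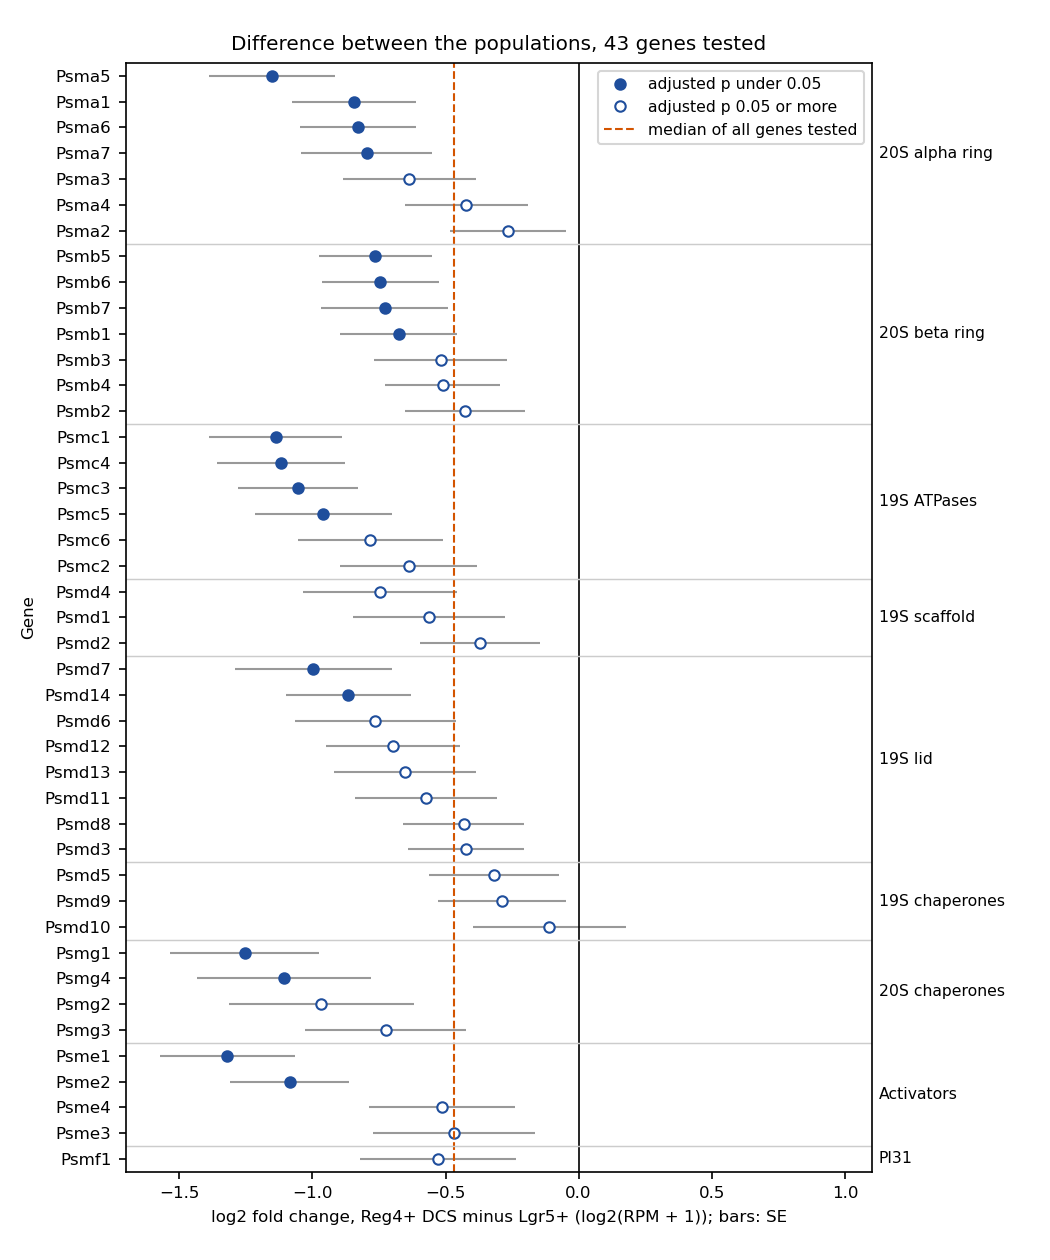
log2 fold change of the 43 tested genes, as the mean log2(RPM + 1) of Reg4+ DCS less that of Lgr5+ cells, with its standard error; filled points have an adjusted p under 0.05. All points lie left of 0, and 34 lie left of the dashed median of all genes at −0.47; after median-of-ratios scaling 10 points change to the right of 0.

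The alpha subunits form the outer rings of the core, whose tails close the gate. Of 7 tested, 4 were called higher in Lgr5+ cells (26.9% of all genes were), and the list had a median log2 fold change of −0.80. Psma5 had 58.5 and 58.9 RPM in Reg4+ DCS cells and 116 and 149.7 RPM in Lgr5+ cells. Both Lgr5+ values were far above both Reg4+ DCS values, which were nearly the same. The ratio of means was 2.26 (1.97 to 2.55 with each library left out in turn), and the log2 fold change was −1.15 ± 0.24 (SE, limma, adjusted p 0.00844). Psma2, at the other end of the list, had 74.7 and 78.4 against 91.2 and 93.0 RPM. Its groups were apart too, yet the log2 fold change was only −0.26 ± 0.22 (SE, adjusted p 0.366), and against the median of all genes Psma2 was on the higher side in Reg4+ DCS cells.

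The beta subunits line the chamber, and 3 of them cut: Psmb5 carries the chymotrypsin-like site, Psmb6 the caspase-like site and Psmb7 the trypsin-like site. The RPM of Psmb5 was 121 and 127 in Reg4+ DCS and 203 and 220.2 in Lgr5+ cells, that of Psmb6 was 103 and 116 against 172 and 197, and that of Psmb7 was 58.1 and 58.8 against 85.5 and 111. In each of the 3 the Lgr5+ libraries were higher without overlap, and the ratios were nearly equal. The ratio of means was 1.70 for Psmb5, 1.68 for Psmb6 and 1.68 for Psmb7. Their log2 fold changes were −0.76 ± 0.21, −0.74 ± 0.22 and −0.73 ± 0.24 (SE), with adjusted p of 0.0275, 0.0335 and 0.0472 from limma. Psmb1, a noncatalytic beta subunit and the highest of all these genes at 319 and 311 against 468 and 542 RPM, was also called (adjusted p 0.0454). Psmb2, the beta subunit with the smallest difference, had 55.4 and 59.6 against 76.6 and 78.6 RPM. That was 1.35-fold and did not pass (log2 fold change −0.43 ± 0.22 SE, adjusted p 0.170).

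Psmb11, the catalytic subunit of the proteasome of the thymic cortex, was too low to be tested. It had 0.815 and 1.33 RPM in Reg4+ DCS and 8.64 and 2.01 RPM in Lgr5+ cells, which were 9, 8, 45 and 16 reads. The 9 and 8 reads of the Reg4+ DCS columns came from 1 of the 2 parts of each column, and the other part had 0. Psmb11 lies 3.41 kb from Psmb5 on chromosome 14, and whether its reads come from its own transcript was not tested. Psmc3ip was also below the threshold for testing, with 1.07 and 1.39 against 4.23 and 7.92 RPM, and was called higher in Lgr5+ cells when no filter was applied.

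Promoters are shown for 4 genes because proteasome genes are known to be induced together through antioxidant response elements, which the factor encoded by Nfe2l1 binds. RefSeq windows of 250 bases before to 50 after the start (GRCm38.p6) matched 38 of the 45 genes by symbol. Both strands were searched for TGACNNNGC, the core of that element. It was found for 6 of 38, namely Psmb5, Psmb6, Psmc6, Psmd9, Psmd12 and Psme4, while 14.0% of all genes with a window hold it. The 150 bases before the start are printed 5′ to 3′ on the gene's strand, with matches in capitals. Psmb5 and Psmb6 are catalytic subunits with a match, and Psmd9 is an assembly chaperone with a match and little difference between populations. Psme1 had the lowest log2 fold change of all tested members and no match to TGACNNNGC.
Psmb5, chr14:54617996-54618145, minus strand: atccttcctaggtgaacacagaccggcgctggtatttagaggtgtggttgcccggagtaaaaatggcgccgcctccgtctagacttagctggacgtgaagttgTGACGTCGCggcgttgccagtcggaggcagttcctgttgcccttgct
Psmb6, chr11:70525207-70525356, plus strand: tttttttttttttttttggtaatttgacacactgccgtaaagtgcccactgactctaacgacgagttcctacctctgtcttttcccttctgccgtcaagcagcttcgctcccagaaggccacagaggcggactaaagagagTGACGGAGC
Psmd9, chr5:123228040-123228189, plus strand: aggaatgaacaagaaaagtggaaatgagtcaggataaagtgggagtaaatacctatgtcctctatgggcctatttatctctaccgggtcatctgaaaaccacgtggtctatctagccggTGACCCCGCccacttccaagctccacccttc
Psme1, chr14:55578344-55578493, plus strand: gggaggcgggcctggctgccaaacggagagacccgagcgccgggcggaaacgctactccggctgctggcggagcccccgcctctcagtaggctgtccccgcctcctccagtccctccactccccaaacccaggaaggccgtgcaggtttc

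A match describes letters and not a bound site. The element was in 2 of the 14 windows of genes called higher in Lgr5+ cells and in 4 of the 24 windows of genes not called. CCGGAAG, the core bound by ETS factors, was in 15 of 38 windows (39.5%) against 9.93% of all genes, in 3 of the 14 called and 12 of the 24 not called. CCAAT was in 14 of 38 against 41.1% of all genes, in 5 of the 14 called and 9 of the 24 not called. TGACGTCA, the cyclic AMP response element, which shares its first 4 letters with the antioxidant core, was in none of the 38 and in 2.03% of all genes. A further motif that was searched, its letters not printed here, was in 5 of 38 windows (13.2%) against 3.99% of all genes. It was in 2 of the 14 called, Psme1 and Psmg4, and in 3 of the 24 not called, Psmb3, Psmd4 and Psmd9. The match for Psme1 lies after the start, outside the printed bases.

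The ATPases Psmc1 to Psmc6 form the ring that unfolds substrates and pushes them into the core. They had the lowest median log2 fold change of the lists of 19S and 20S subunits, −1.01. Of the 6, 4 were called higher in Lgr5+ cells, where 26.9% of all genes were. The 6 summed to 283 and 331 RPM in Reg4+ DCS against 600.1 and 619 RPM in Lgr5+ cells. Psmc1 had 50.4 and 63.0 RPM in Reg4+ DCS cells and 110.1 and 142 RPM in Lgr5+ cells. The populations were well apart, at 2.23-fold (1.94 to 2.51 with each library left out) and −1.14 ± 0.25 on the log2 scale (SE, adjusted p 0.0111). Psmc3 and Psmc4 were called as well, with log2 fold changes of −1.06 and −1.12, and Psmc5 with −0.96. For Psmc2 the values were 54.7 and 40.1 against 79.5 and 67.9 RPM. The lower Lgr5+ library was close to the higher Reg4+ DCS library, and the difference of −0.64 ± 0.26 did not pass (SE, adjusted p 0.0859).

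The 3 genes of the scaffold and of ubiquitin recognition gave no call, with a median log2 fold change of −0.56 (26.9% of all genes were called higher in Lgr5+ cells). Psmd4, a ubiquitin receptor, had 43.9 and 70.8 against 83.6 and 106 RPM, with a log2 fold change of −0.75 ± 0.29 (SE, adjusted p 0.0783). Its 2 Reg4+ DCS libraries differed more from each other than its Lgr5+ libraries did. Psmd2, a large scaffold subunit, had 92.7 and 92.2 against 109 and 132 RPM and a log2 fold change of −0.37 ± 0.23 (SE, adjusted p 0.225).

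The lid holds the deubiquitinase Psmd14 and its partner Psmd7, and these were the 2 of 8 lid genes that were called. That share of 25% was near the 26.9% of all genes called higher in Lgr5+ cells. Psmd7 had 41.1 and 32.1 RPM in Reg4+ DCS and 92.2 and 58.5 RPM in Lgr5+ cells. The Lgr5+ libraries spread widely, yet the lower one was above both Reg4+ DCS libraries. The ratio was 2.06 (1.60 to 2.52 with each library left out), and the log2 fold change was −0.996 ± 0.29 (SE, adjusted p 0.0329). Psmd14 had 42.7 and 51.4 against 85.3 and 87.0 RPM, a ratio of 1.83 and a log2 fold change of −0.86 ± 0.23 (SE, adjusted p 0.0244). Psmd3, a structural lid subunit and one of the most abundant of these transcripts, had 287 and 284 against 413 and 355 RPM, and its log2 fold change of −0.42 ± 0.22 did not pass (SE, adjusted p 0.162).

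The 2 kinds of assembly chaperone stood at opposite ends. Psmd5, Psmd9 and Psmd10, which bind ATPases while the base of the 19S particle is built, had the smallest median difference of the role lists (−0.29), with log2 fold changes from −0.32 to −0.11 and no call. Psmd10, also known as gankyrin, had 19.4 and 23.9 RPM in Reg4+ DCS and 20.4 and 26.8 RPM in Lgr5+ cells. Its populations overlapped, and the difference was −0.11 ± 0.29 (SE, adjusted p 0.784). All 3 lay above the median of all genes in RPM, and after median-of-ratios scaling their log2 fold changes were above 0, without a call. Psmd5 had 45.4 and 57.9 against 65.9 and 62.5 RPM (adjusted p 0.329).

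Psmg1 to Psmg4, which guide assembly of the 20S rings, had a median log2 fold change of −1.04. Of the 4, 2 were called higher in Lgr5+ cells, where 26.9% of all genes were. Psmg1, a partner in the dimer that starts the alpha ring, had 9.42 and 9.79 RPM in Reg4+ DCS and 23.8 and 24.8 RPM in Lgr5+ cells. The ratio of 2.53 (2.48 to 2.58 with each library left out) was the highest of the tested members (log2 fold change −1.25 ± 0.28 SE, limma, adjusted p 0.0119). The columns of each pair were close, but the averaged parts were not. Those of Reg4+ DCS replicate 1 had 12.5 and 6.35 RPM (69 and 12 reads) and those of replicate 2 had 11.0 and 8.59 RPM. The range of the ratio does not count this spread. Psmg4 had 11.6 and 20.05 against 31.1 and 37.3 RPM (adjusted p 0.0327). Psmg3 had 37.7 and 29.1 against 43.6 and 70.1 RPM. The nearest libraries of the 2 populations were close, and the difference did not pass (−0.72 ± 0.30 SE, adjusted p 0.0950).

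The activators comprise Psme1 and Psme2, which together form the interferon-inducible PA28 cap, Psme3, its nuclear relative, and Psme4, the large single-chain activator PA200. Psme1 had 68.6 and 90.6 RPM in Reg4+ DCS cells and 173 and 227 RPM in Lgr5+ cells. It was 2.51-fold (2.17 to 2.92 with each library left out) and had the lowest log2 fold change of all, −1.32 ± 0.25 (SE, adjusted p 0.00663). Psme2 had 71.4 and 62.0 against 148 and 137 RPM, a ratio of 2.14 and a log2 fold change of −1.09 ± 0.22 (SE, adjusted p 0.00857). Both were high in both Lgr5+ libraries without overlap. They lie 5.91 kb apart on chromosome 14, and how the authors' counting treated the pseudogene Psme2b-ps, a near copy of Psme2, is not stated in the labels. Psme3 had 25.5 and 44.0 against 45.9 and 47.8 RPM. Its higher Reg4+ DCS library nearly reached the Lgr5+ libraries, and neither Psme3 (adjusted p 0.254) nor Psme4 (adjusted p 0.176) was called. Psmf1, which encodes the 20S-binding protein PI31, had 18.0 and 27.7 against 32.7 and 32.8 RPM (log2 fold change −0.53 ± 0.29 SE, adjusted p 0.188).

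The 3 immunoproteasome subunits, which the naming rule leaves out, were set beside the catalytic subunits they replace. Psmb8, which takes the place of Psmb5, had 23.0 and 29.5 against 50.1 and 58.7 RPM (adjusted p 0.0194). Psmb9, in the place of Psmb6, had 10.5 and 10.2 against 23.8 and 27.0 RPM (adjusted p 0.0136). Psmb10, in the place of Psmb7, had 74.9 and 104 against 177 and 208 RPM (adjusted p 0.0124). All 3 were higher in Lgr5+ cells, by 2.07-fold, 2.45-fold and 2.15-fold. None of them was called by limma after median-of-ratios scaling, where 12.7% of all genes were higher in Lgr5+ cells, or by edgeR with TMM scaling (13.4%). In the former all 3 had an unadjusted p under 0.05, as had at least the 1297 and 1591 of 10183 genes called by direction. Within a library the scaling cancels. The ratio of Psmb8 to Psmb5 was 0.189 and 0.233 in Reg4+ DCS and 0.247 and 0.267 in Lgr5+ libraries, that of Psmb9 to Psmb6 was 0.102 and 0.0884 against 0.138 and 0.137, and that of Psmb10 to Psmb7 was 1.29 and 1.78 against 2.07 and 1.87. The ratios were higher in both Lgr5+ libraries in all 3 pairs. The ratio of Psme1 to Psmb5 was 0.565 and 0.715 against 0.852 and 1.03. The leukocyte gene Ptprc had 40.1 and 9.55 RPM in Lgr5+ replicates 1 and 2, and its part in these values was not tested. No test was run on the ratios, and for Psmb10 to Psmb7 the nearest libraries of the populations were close. In the limma fit relative to the 20S core, described next, none of the 3 subunits was called. Their adjusted p was 0.325 for Psmb8, 0.178 for Psmb9 and 0.217 for Psmb10, where 8.71% of all genes were called lower in Reg4+ DCS cells.

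**Figure D3:**
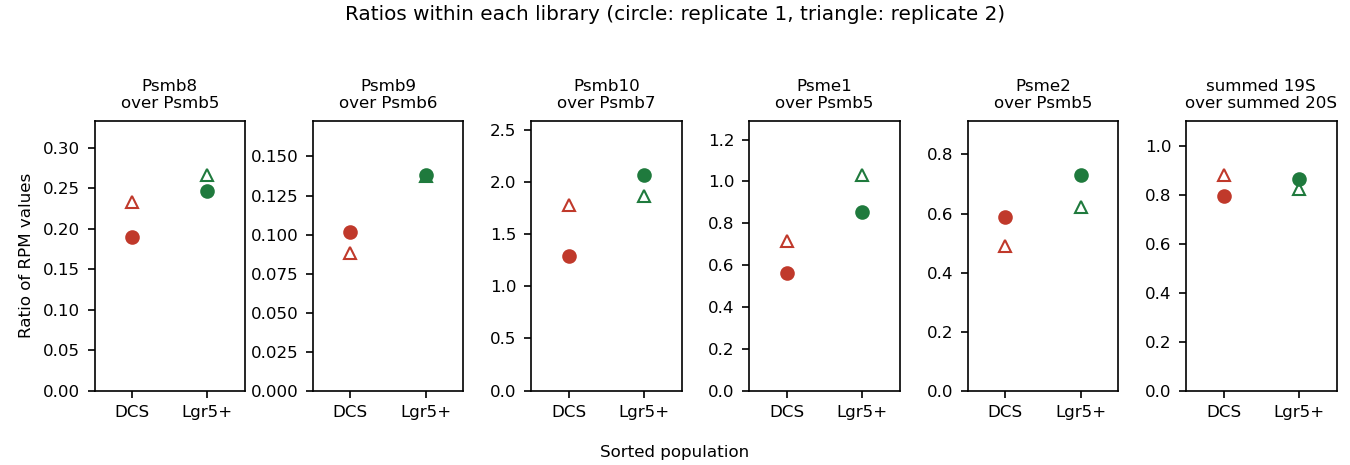
Ratios of RPM within each of the 4 libraries: each immunoproteasome subunit to the catalytic subunit it replaces, PA28 subunits to Psmb5, and the summed 19S subunits to the summed 20S subunits; each mark is 1 library. The 19S to 20S ratio overlaps between populations (0.795 and 0.883 against 0.868 and 0.825), and the other ratios plotted are higher in both Lgr5+ libraries.

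To ask which genes moved differently from the core itself, the mean log2(RPM + 1) of the 14 constitutive alpha and beta subunits was subtracted from each library before the fit, which removes the library total. For those 14 genes the mean is fixed at 0 by construction, while single genes ran from −0.49 for Psma5 to 0.40 for Psma2. Among the other 29 tested members none was called by limma, where 8.71% of all genes were called lower and 18.1% higher in Reg4+ DCS cells than the core. A single member had an unadjusted p under 0.05, Psme1, at −0.65 with an adjusted p of 0.0872. The 29 ranged from −0.65 for Psme1 to 0.55 for Psmd10. The count was also 0 in each of the alternatives run for this fit, which were all limma fits. With standard errors of 0.21 to 0.35 in the RPM fit, differences of this size within the complex were not resolved.

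**Figure D4:**
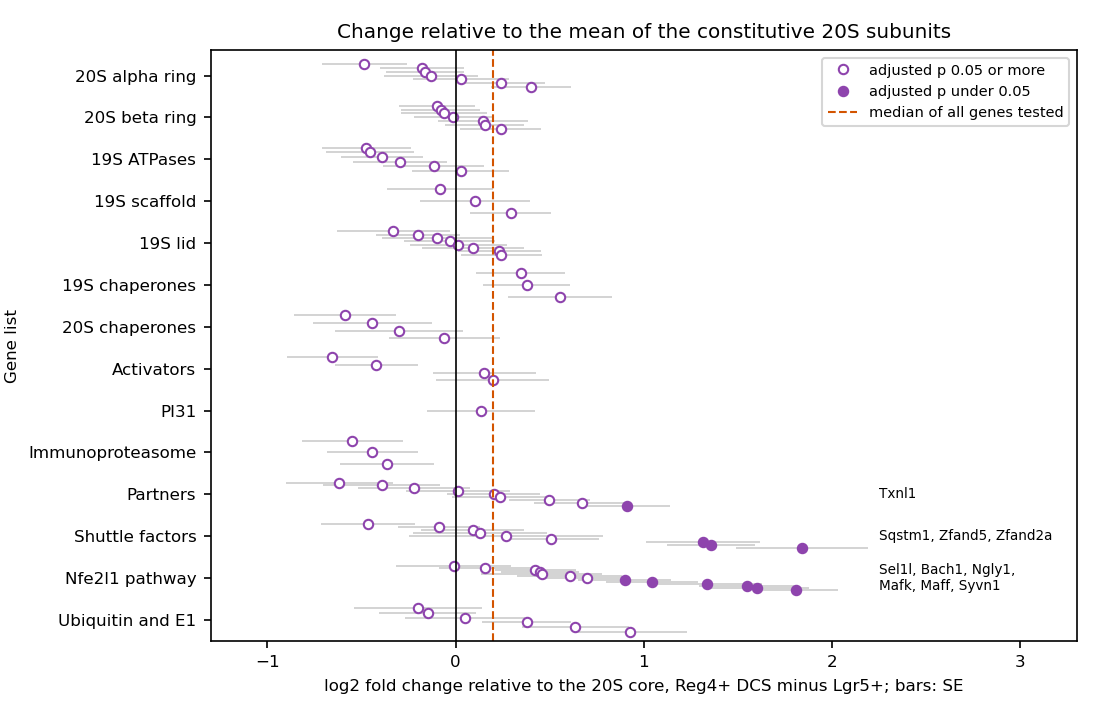
log2 fold change relative to the 20S core, Reg4+ DCS minus Lgr5+, with its standard error, for the proteasome genes and other pathway genes by list; filled points have an adjusted p under 0.05 and are named at the right. Open points fill every proteasome list, and the 10 filled points are partners, shuttle factors and genes of the Nfe2l1 pathway.

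The other genes of the pathway showed both directions. Of 41 genes in 5 lists (immunoproteasome, partners without a Psm name, shuttle factors, the Nfe2l1 pathway, and ubiquitin genes with their activating enzymes), 40 were tested. Of these, 8 were called higher in Lgr5+ cells (Psmb8, Psmb9, Psmb10, Uchl5, Akirin2, Ubqln1, Ubqln4 and Rps27a), where 26.9% of all genes were, and 4 higher in Reg4+ DCS cells (Zfand2a, Syvn1, Maff and Mafk), where 7.18% of all genes were. After median-of-ratios scaling the counts were 0 and 9 of the 40, where 1297 and 1591 of all 10183 genes were called. Uchl5, a deubiquitinase of the 19S particle, had 11.0 and 15.1 against 29.4 and 36.8 RPM (adjusted p 0.0135). Ubqln4, a shuttle factor, had 30.6 and 40.5 against 70.7 and 86.9 RPM (adjusted p 0.0132), and its fellow shuttle factor Zfand2a, which arsenite induces, had 29.0 and 55.4 against 19.6 and 15.1 RPM (adjusted p 0.0348). Txnl1, a thioredoxin-like protein bound to the 19S particle, overlapped at 135 and 113 against 93.7 and 116 RPM. The activating enzyme Uba6 had 4.76 and 7.31 against 9.80 and 13.7 RPM (adjusted p 0.0860).

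The list around Nfe2l1, which encodes a membrane-bound factor that raises proteasome transcription when the proteasome is inhibited, had 13 tested genes. Of these 3 were called higher in Reg4+ DCS cells (7.18% of all genes) and none in Lgr5+ cells (26.9% of all genes), with a median log2 fold change of 0.03 (−0.47 for all genes). Nfe2l1 itself had 104 and 126 RPM in Reg4+ DCS and 113 and 110.4 RPM in Lgr5+ cells, which overlapped (adjusted p 0.916). Its relative Nfe2l2 had 88.3 and 118 against 212 and 126 RPM and was not called (adjusted p 0.112). Syvn1, the ubiquitin ligase of endoplasmic reticulum degradation, had 189.6 and 187 against 93.9 and 76.2 RPM (log2 fold change 1.14 ± 0.23 SE, adjusted p 0.00737). Relative to the 20S core, 10 of the 40 genes tested in these 5 lists were called, all higher in Reg4+ DCS cells, where 18.1% of all genes were. These were Txnl1, Zfand2a, Zfand5, Sqstm1, Syvn1, Maff, Mafk, Ngly1, Bach1 and Sel1l.

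**Figure D5:**
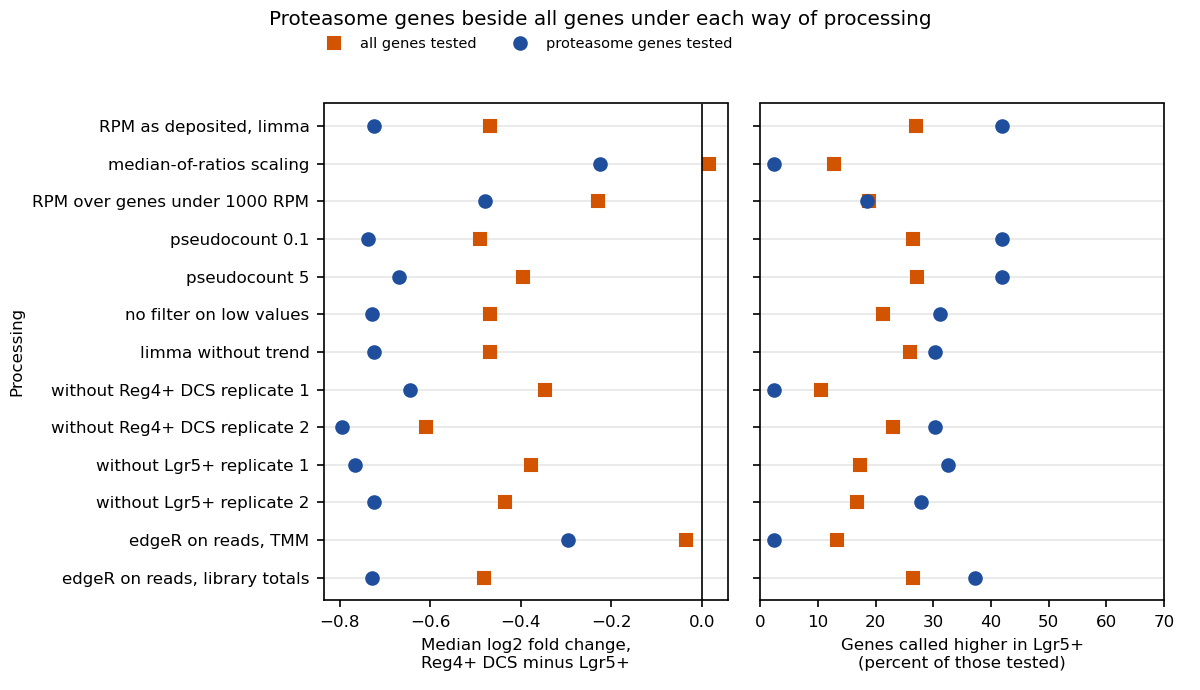
Median log2 fold change of the proteasome genes and of all genes tested, Reg4+ DCS minus Lgr5+, under the RPM fit and each alternative except the replicate block, at the left. The percent of each called higher in Lgr5+ cells is at the right. The proteasome median is below that of all genes in every setting drawn, while the share called is above that of all genes in RPM (41.9% and 26.9%) and below it after median-of-ratios scaling (2.33% and 12.7%).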

How the data were processed

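Cells were sorted into Trizol and made into CEL-seq libraries for 50 bp paired-end sequencing, per the labels' protocols. BWA 0.6.2-r126 and the build mm10 are named, per the submitters' processing notes. The counting step, annotation and use of molecular identifiers were not given in the sources used here. The authors deposited RPM for 14519 genes, and each column sums to 1000000. RPM is relative to the column total, so abundant transcripts lower the other values.

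limma 3.58.1 in R 4.3.3 (lmFit, eBayes with a trend) was run on log2(RPM + 1) for genes with at least 5 RPM in 2 or more libraries, with no term besides group and Benjamini-Hochberg adjustment over all 10183 genes tested (threshold 0.05). This scale understates changes of low genes. Folds are ratios of mean RPM. limma draws the variance of each gene toward a trend over all genes tested. Its SE and p-values therefore do not measure only that gene's spread between 2 libraries a group. The Reg4+ DCS columns are averages of 2 parts. Whole reads were recovered from the RPM steps within 0.01 reads for 100% of genes in the Lgr5+ columns and decoded for 99.95% and 99.1% in the Reg4+ DCS columns, and for every proteasome gene. edgeR 4.0.16 on these reads called 1362 genes higher in Lgr5+ and 1394 higher in Reg4+ DCS cells. Only the main limma fit was run on simulated reads, in which as many genes were raised as lowered, unlike in these data. The outcome is not given here, and edgeR and the other fits were not simulated.

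The members and gene lists were chosen with earlier results of these data known. Values in every library are given for the sort markers, the tested genes with the highest and lowest log2 fold change of each list, the catalytic and immunoproteasome subunits, Nfe2l1 and Nfe2l2, except for 1 gene that is not reported here. Psmb1, Psmb11, Psmc3ip, Psmd14, Psme2 and Psmg4 were added after their values were seen. Alternatives were other scalings, pseudocounts, filters and tests, a replicate block, and leaving out each library. Distances between genes come from GENCODE M21 (GRCm38, the assembly of mm10).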

Additional observations from a re-analysis of the deposited data

How the results depend on the processing

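With median-of-ratios scaling 1297 genes were higher in Lgr5+ and 1591 in Reg4+ DCS cells, against 2744 and 731 in RPM, and edgeR with TMM scaling on recovered reads gave 1362 and 1394. Under either, 1 proteasome gene was called (Psme1) in place of 18, so that 1 role list in place of 6 held a call, and the median log2 fold change of the proteasome genes was −0.22 and −0.30. Of the other pathway genes, 0 in place of 8 were then higher in Lgr5+ cells, and 9 and 8 in place of 4 in Reg4+ DCS cells. The cause was not tested. With RPM taken over genes under 1000 RPM, 8 proteasome genes were called, and 5 and 7 of the others, where 1920 and 1086 of all genes were. edgeR on library totals alone, an alternative added after the data were seen, called 16 proteasome genes. Leaving out each library gave 1 to 14 proteasome genes in 1 to 6 role lists, 0 to 9 other pathway genes higher in Lgr5+ and 1 to 5 in Reg4+ DCS cells, and 1419 to 2637 genes in all (1060 to 2288 and 349 to 706 by direction). The lone library of a group is then assumed to vary like the other group. The replicate block gave 25 proteasome genes, including all 18 (34.7% of all genes were higher in Lgr5+ cells), and 3534 and 910 genes by direction. Same-numbered libraries deviated together with a correlation of 0.21, but the labels do not say that the numbers pair them. Without the filter on low values 14 of 45 proteasome genes were called (21.2% of all genes), Psmc3ip among them and 13 of the 18. Psmb11 and Psmc3ip rest on 7 to 63 reads a library.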

Other observations

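Within the parts that make up the Reg4+ DCS columns, 40 and 41 of the 43 tested proteasome genes lay below both Lgr5+ libraries in replicate 1, and 42 and 40 in replicate 2. This count was not made over all genes. The parts make up the columns already compared, so the count is no separate support for the difference. For whole columns, both Lgr5+ libraries lay above both Reg4+ DCS libraries in 56.2% of all genes. The summed level of the 43 proteasome genes was 3180 and 2728 RPM in the parts of replicate 1 and 3065 and 3251 RPM in those of replicate 2.

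The median ratio of replicate 2 to replicate 1 over the proteasome genes was 1.05 in Reg4+ DCS cells, with 29 of 43 genes higher in replicate 2, and 1.04 in Lgr5+ cells, with 27 of 43 higher. Single genes differed more between replicates, such as Psme3 with 25.5 and 44.0 RPM in Reg4+ DCS cells and Psmd1 with 112 and 67.1 RPM in Lgr5+ cells.

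The 45 genes lay on 16 chromosomes, with 9 on chromosome 11 and 6 each on chromosomes 2 and 14.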
